A study of Mus musculus with 14 samples.

Results

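The genes described here are 9 of the TNF pathway: the cytokine gene Tnf, its receptor genes Tnfrsf1a and Tnfrsf1b, the related receptor gene Tnfrsf12a, and Tnfaip3, Nfkbia, Nfkb2, Relb and Birc3, which encode inhibitors, subunits and effectors of the transcription factor NF-kB. They are the rows of the deposited count table whose gene symbol is one of these names, 1 row each, out of 55359 genes with an Ensembl identifier. All 9 passed the filter on low counts, which kept 16918 genes for testing. Tnf passed it only through the thrombosis samples, so a difference in that gene was favoured by the filter itself.

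The samples are bulk RNA-seq libraries of mouse cortex, left and right together, after cerebral venous sinus thrombosis (CVST), in which a clot blocks the large veins that drain the brain. The groups were 5 samples 7 d after CVST (CVST-7d), 5 samples 2 d after CVST (CVST-2d) and 4 sham samples. The labels name no genetic change or drug for any group, and they do not state strain, sex, age, how the clot was induced or when sham cortex was taken. The labels do not say whether each sample is 1 mouse or several, so the p-values measure the spread between these samples.

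TNF is a cytokine released by activated microglia, macrophages and other immune cells. It binds TNFR1, the product of Tnfrsf1a, which is made by most cell types and can signal both to NF-kB and to cell death, and TNFR2, the product of Tnfrsf1b, which is found mainly on immune, endothelial and glial cells and has no death domain. In resting cells NF-kB dimers are held in the cytoplasm by IkB proteins. Signalling destroys the IkB, and the freed dimers switch on inflammatory genes together with genes for their own inhibitors, which is the feedback that ends the response. A slower, non-canonical arm, driven by receptors such as Fn14, the product of Tnfrsf12a, processes the NF-kB precursor encoded by Nfkb2 into a subunit that pairs with RelB.

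Library totals ran between 14696104 and 20798651 gene counts, and scaling factors (TMM) between 0.962 and 1.04. On the first principal component of all tested genes, which held 33.1% of the variance, CVST-7d replicate 2 (-26.9) and CVST-2d replicate 5 (-26.7) lay beside sham replicate 1 (-27.3) and apart from the other 8 CVST samples (1.48 to 49.1). Sham replicates 2 to 4 lay between -48.2 and -47.7. Results are therefore also given without those 2 CVST samples, a choice made after the data were seen. The 2 were picked for lying near sham in these same data, so leaving them out favours calls relative to sham. Smaller p-values without them are no further support for a difference. Summed markers of cortical neurons, 0 of 6 of them called in any comparison, were 3142 to 5173 CPM (counts scaled to library size with the TMM factors) in CVST-7d, 3773 to 5069 CPM in CVST-2d and 3591 to 4752 CPM in sham. In whole tissue, fewer cells of a type and less RNA per cell cannot be told apart. Both CVST groups were compared with the same 4 sham samples, so the 2 comparisons are not independent.

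At 7 d, Tnf, Tnfrsf1b and Birc3 were higher than in sham, 3 of 9 genes, while 4.44% of all tested genes were called and 3.61% were called higher. At 2 d, 4 of 9 were higher than in sham, namely Tnf, Tnfrsf1a, Tnfrsf12a and Nfkb2, while 3.95% of all tested genes were called and 2.98% were called higher. Between the 2 times, 1 of 9 differed, Tnfrsf12a, which was lower at 7 d, while 2.8% of all tested genes were called, 1.54% as higher and 1.25% as lower. The median log2 fold change of the 9 genes was 0.96 at 7 d and 1.30 at 2 d relative to sham, against -0.01 for all tested genes in both comparisons. None of the 9 was called lower than sham at either time. The 9 genes were chosen with earlier results of these data known, and Tnf was tested through its CVST samples. The counts and medians therefore give no support for a shift of the 9 genes as a set. A gene is called where edgeR's quasi-likelihood test gives a Benjamini-Hochberg adjusted p under 0.05 over all genes tested. Without CVST-2d replicate 5 and CVST-7d replicate 2, the counts of genes called were 5 of 9 at 7 d, 6 of 9 at 2 d and 1 of 9 between the times. Calls among all genes also rose in that fit, to 1324 at 7 d (from 752), 2146 at 2 d (from 669) and 913 between the times (from 473).

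**Figure D1:**
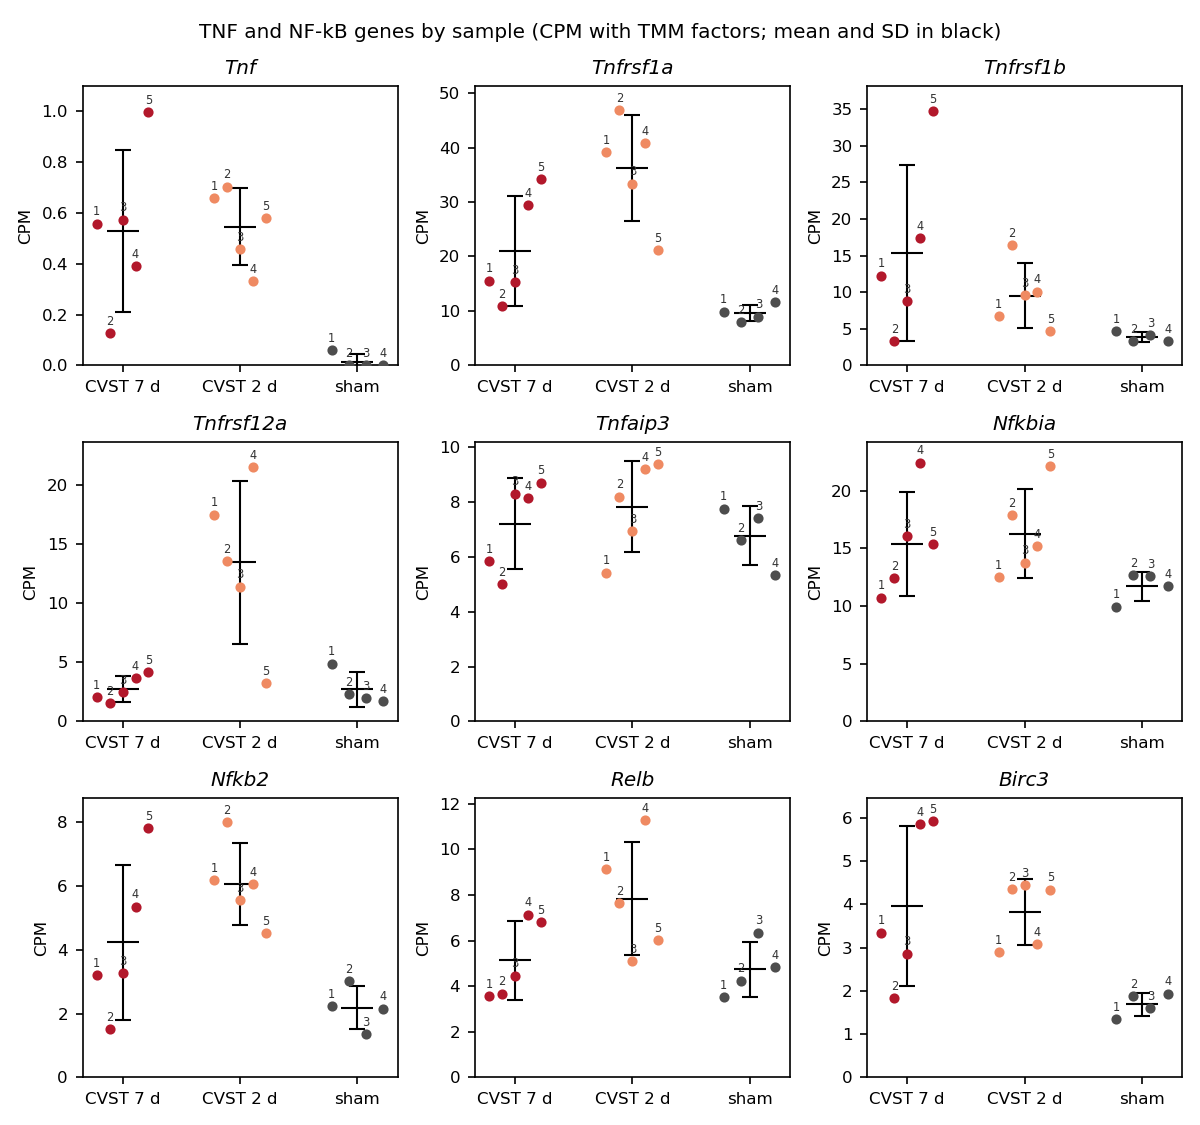
Normalised expression (CPM with TMM factors, linear axes from 0) of the 9 genes in each sample, with CVST 7 d, CVST 2 d and sham from left to right, a point and replicate number for each sample, and the mean and SD in black. Tnf reached at most 0.0588 CPM in sham, and Tnfrsf12a was above 11 CPM in 4 CVST 2 d samples and in no other sample.

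The ligand gene Tnf was nearly absent from sham cortex and present in every CVST sample. Its reads numbered 8, 2, 10, 7 and 19 in the CVST-7d samples (replicates 1 to 5), 12, 15, 7, 6 and 10 in the CVST-2d samples, and 1, 0, 0 and 0 in the sham samples. In CPM this was 0.558, 0.127, 0.573, 0.391 and 0.996 in CVST-7d, 0.657, 0.703, 0.458, 0.330 and 0.579 in CVST-2d, and 0.0588, 0, 0 and 0 in sham. Every CVST sample lay above every sham sample, and the lowest CVST value was that of CVST-7d replicate 2. The log2 fold change relative to sham was 4.69 ± 0.82 (SE) at 7 d (adjusted p = 0.00924) and 4.72 ± 0.81 at 2 d (adjusted p = 0.0107) by edgeR. These sizes rest on a single sham read, and without sham replicate 1, which held it, the fitted values were 6.26 at 7 d and 6.30 at 2 d. Pooled over samples, the ratio to sham was 39.2 at 7 d (95% exact interval 6.69 to 1581, 46 reads against 1) and 39.9 at 2 d (6.84 to 1606, 50 reads against 1), intervals that cover counting error only. The 2 CVST times had a ratio of 0.983 to each other (0.644 to 1.50), and their log2 fold change was -0.04 ± 0.45 (edgeR adjusted p = 0.976). The call at 2 d was lost when sham replicate 3 was left out (adjusted p = 0.0512), and the call at 7 d held in all 14 such fits. Without CVST-2d replicate 5 and CVST-7d replicate 2 the fold changes were 4.95 at 7 d (edgeR adjusted p = 0.00137) and 4.72 at 2 d (edgeR adjusted p = 0.00215).

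Tnfrsf1a, the gene of the widely expressed receptor TNFR1, had its highest mean at 2 d. It measured 15.5, 10.9, 15.3, 29.4 and 34.2 CPM in CVST-7d, 39.1, 46.9, 33.4, 40.8 and 21.2 CPM in CVST-2d, and 9.88, 7.99, 8.96 and 11.6 CPM in sham. All CVST-2d samples lay above all sham samples, and at 7 d only replicate 2 overlapped sham. The rise at 2 d was 1.92 ± 0.32 on the log2 scale (edgeR adjusted p = 0.00914) and was called whichever sample was left out. At 7 d the log2 fold change was 1.13 ± 0.31 and was not called (edgeR adjusted p = 0.0548). It was called in 2 of the 14 fits that leave out 1 sample, those without CVST-2d replicate 5 (0.0368) or CVST-7d replicate 2 (0.015). In the others adjusted p ran up to 0.153. Without both samples, a choice that favours calls, the fold change was 1.32 (edgeR adjusted p = 0.00578). The difference between 7 d and 2 d, -0.78 ± 0.28, was not called (edgeR adjusted p = 0.133).

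Tnfrsf1b, the gene of TNFR2, had its highest mean at 7 d. It measured 12.3, 3.36, 8.77, 17.4 and 34.8 CPM in CVST-7d, 6.73, 16.5, 9.62, 10.1 and 4.69 CPM in CVST-2d, and 4.65, 3.33, 4.15 and 3.29 CPM in sham. CVST-7d replicate 5 was the highest and replicate 2 of the same group lay within the sham range, while all CVST-2d samples were above sham, replicate 5 just so. The log2 fold change at 7 d was 1.99 ± 0.53 (edgeR adjusted p = 0.0463). That call held in 4 of the 14 fits that leave out 1 sample, those without CVST-2d replicate 2, CVST-2d replicate 5, CVST-7d replicate 2 or CVST-7d replicate 3; in the others, including all 4 without a sham sample, adjusted p ran up to 0.135. Without CVST-7d replicate 5 the fold change was 1.44 (edgeR adjusted p = 0.106). At 2 d the log2 fold change was 1.30 ± 0.52 (edgeR adjusted p = 0.162), and between 7 d and 2 d it was 0.69 ± 0.46 (edgeR adjusted p = 0.412). Between the times it ran from 0.13 to 0.98 with 1 sample left out and was called in 0 of 14 such fits. With CVST-2d replicate 5 and CVST-7d replicate 2 both left out, Tnfrsf1b was called at 7 d (2.27, adjusted p = 0.00356) and at 2 d (1.49, adjusted p = 0.0275).

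The balance of the receptor transcripts was taken as the log2 ratio of Tnfrsf1b to Tnfrsf1a in FPKM, the authors' fragment counts per unit of transcript length and of library size. It was -1.25, -2.79, -1.76, -1.59 and -1.03 in CVST-7d, -3.44, -2.49, -2.83, -2.93 and -3.08 in CVST-2d, and -1.99, -2.17, -2.01 and -2.83 in sham. Tnfrsf1a was thus the more abundant transcript in all 14 samples, and the ratio of Tnfrsf1b to it lay above every CVST-2d sample in 4 of 5 CVST-7d samples, all but replicate 2. The mean log2 ratio was 1.27 higher at 7 d than at 2 d (-1.69 ± 0.68 against -2.96 ± 0.35, SD, n = 5 each; 2-sided exact permutation p = 0.0159, adjusted over 3 comparisons 0.0476). It was 0.57 higher at 7 d than in sham (-2.25 ± 0.39, n = 4; exact permutation p = 0.175, adjusted 0.175) and 0.70 lower at 2 d than in sham (exact permutation p = 0.0317, adjusted 0.0476). The smallest p these designs allow is 0.0159 for 5 against 4 samples and 0.00794 for 5 against 5. The call at 2 d relative to sham was lost without any 1 of its 9 samples other than CVST-2d replicate 2 (adjusted p up to 0.107), tests in which the smallest possible p is also larger. The call between the times was lost without CVST-2d replicate 1, 3, 4 or 5 (adjusted p = 0.0857 each). The ratio passed the threshold at 7 d relative to sham without CVST-7d replicate 2 (0.84, exact permutation, adjusted p = 0.0317), and without CVST-2d replicate 5 and CVST-7d replicate 2 together (adjusted p = 0.0429).

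**Figure D2:**
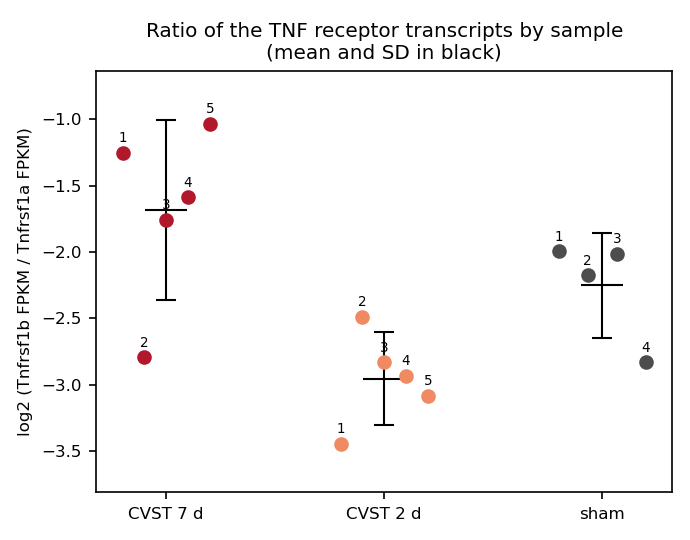
Log2 ratio of Tnfrsf1b FPKM to Tnfrsf1a FPKM in each sample, with CVST 7 d, CVST 2 d and sham from left to right, replicate numbers beside the points and the mean and SD in black. The CVST 7 d mean is -1.69, the CVST 2 d mean -2.96 and the sham mean -2.25, and CVST 7 d replicate 2 lies among the CVST 2 d samples.

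Tnfrsf12a, the gene of Fn14, a receptor for the cytokine TWEAK that is known to be induced by tissue injury, was high at 2 d and near the sham level at 7 d. It measured 2.02, 1.52, 2.46, 3.63 and 4.14 CPM in CVST-7d, 17.5, 13.5, 11.4, 21.5 and 3.24 CPM in CVST-2d, and 4.88, 2.30, 1.95 and 1.72 CPM in sham. Of the CVST-2d samples 4 lay above all others of the study, and replicate 5 lay within both the CVST-7d and the sham range. By edgeR it rose by 2.31 ± 0.48 on the log2 scale at 2 d relative to sham (adjusted p = 0.0211) and was lower at 7 d than at 2 d by -2.27 ± 0.44 (adjusted p = 0.0177). At 7 d it differed from sham by 0.04 ± 0.47 (edgeR adjusted p = 0.979). The call at 7 d relative to 2 d held whichever sample was left out. It was lost with replicate number as a block and with only the 2 compared groups in the fit (edgeR adjusted p up to 0.0743). The call at 2 d relative to sham was lost without sham replicate 2 (edgeR adjusted p = 0.0859), 3 (0.0813) or 4 (0.0762). With CVST-2d replicate 5 and CVST-7d replicate 2 left out, the fold changes were 2.57 at 2 d (edgeR adjusted p = 0.000919) and -2.36 between 7 d and 2 d (edgeR adjusted p = 0.00481).

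The inhibitors of the feedback, Nfkbia and Tnfaip3, were not called in any comparison. Nfkbia encodes IkB-alpha, the inhibitor that NF-kB restores to end its own activity. It measured 10.7, 12.4, 16.0, 22.4 and 15.4 CPM in CVST-7d, 12.5, 17.9, 13.7, 15.2 and 22.1 CPM in CVST-2d, and 9.94, 12.7, 12.6 and 11.7 CPM in sham. Values of CVST-7d replicate 4 and CVST-2d replicate 5 were the highest, and both CVST groups overlapped sham. By edgeR its log2 fold change was 0.40 ± 0.20 at 7 d (adjusted p = 0.307) and 0.47 ± 0.20 at 2 d (adjusted p = 0.195) relative to sham, and -0.08 ± 0.19 between 7 d and 2 d (adjusted p = 0.855).

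Tnfaip3 encodes A20, a ubiquitin-editing enzyme that shuts off signalling from the TNF receptor complex. It measured 5.85, 5.005, 8.31, 8.15 and 8.71 CPM in CVST-7d, 5.42, 8.20, 6.94, 9.19 and 9.38 CPM in CVST-2d, and 7.76, 6.60, 7.41 and 5.33 CPM in sham, so that the 3 groups overlapped. Its log2 fold change relative to sham was 0.09 ± 0.20 at 7 d (edgeR adjusted p = 0.851) and 0.21 ± 0.20 at 2 d (adjusted p = 0.588), and between 7 d and 2 d it was -0.12 ± 0.19 (adjusted p = 0.769). Neither was called under any of the alternatives run. CVST-2d replicate 5, which lay among sham samples in Tnfrsf12a, had the highest Nfkbia and Tnfaip3 values of its group.

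Nfkb2, which encodes the precursor and the subunit of the non-canonical arm, measured 3.21, 1.52, 3.27, 5.36 and 7.81 CPM in CVST-7d, 6.19, 8.01, 5.56, 6.05 and 4.52 CPM in CVST-2d, and 2.24, 3.03, 1.35 and 2.16 CPM in sham. All CVST-2d samples were above sham, and in CVST-7d replicate 2 lay within the sham range. By edgeR it rose at 2 d by 1.47 ± 0.38 on the log2 scale (adjusted p = 0.0447), and its fold change was 0.96 ± 0.38 at 7 d (adjusted p = 0.168) and -0.51 ± 0.34 between 7 d and 2 d (adjusted p = 0.405). The call at 2 d held in 3 of the 14 fits that leave out 1 sample, those without CVST-2d replicate 5, CVST-7d replicate 2 or CVST-7d replicate 5, and adjusted p ran up to 0.139 in the others. Without CVST-2d replicate 5 and CVST-7d replicate 2 it was called at 7 d (1.19, adjusted p = 0.0342) and at 2 d (1.57, adjusted p = 0.0068). In the reference annotation Nfkb2 overlaps Psd and a non-coding RNA on the opposite strand, and the library kit named in the labels does not mark strand, so their reads cannot be told apart where they overlap. Psd, at 296 CPM in CVST-7d, 360 CPM in CVST-2d and 363 CPM in sham, had log2 fold changes of -0.30 at 7 d (edgeR adjusted p = 0.167) and -0.01 at 2 d (adjusted p = 0.97) relative to sham.

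Relb, whose product pairs with the processed Nfkb2 subunit, measured 3.55, 3.67, 4.47, 7.14 and 6.82 CPM in CVST-7d, 9.14, 7.64, 5.11, 11.3 and 6.02 CPM in CVST-2d, and 3.53, 4.24, 6.36 and 4.85 CPM in sham. CVST-7d replicates 4 and 5 and CVST-2d replicates 1, 2 and 4 lay above every sham sample, and the other CVST samples overlapped sham. Its log2 fold change was 0.12 ± 0.28 at 7 d (edgeR adjusted p = 0.863) and 0.72 ± 0.28 at 2 d (adjusted p = 0.149) relative to sham, and -0.61 ± 0.26 between 7 d and 2 d (adjusted p = 0.196).

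Birc3 encodes cIAP2, a ubiquitin ligase that keeps TNFR1 signalling on the NF-kB side and away from cell death. It measured 3.35, 1.84, 2.86, 5.86 and 5.93 CPM in CVST-7d, 2.90, 4.36, 4.45, 3.08 and 4.34 CPM in CVST-2d, and 1.35, 1.88, 1.60 and 1.94 CPM in sham. Every CVST sample but CVST-7d replicate 2 lay above every sham sample. By edgeR its log2 fold change was 1.23 ± 0.32 at 7 d (adjusted p = 0.0422), 1.17 ± 0.32 at 2 d (adjusted p = 0.0522) and 0.06 ± 0.28 between the times (adjusted p = 0.935), so that the calls at 7 d and at 2 d lay close to the threshold on either side of it. The call at 7 d held in 4 of the 14 fits that leave out 1 sample, those without CVST-2d replicate 4, CVST-2d replicate 5, CVST-7d replicate 2 or CVST-7d replicate 3, with adjusted p up to 0.122 in the others. At 2 d it was gained without CVST-2d replicate 5 (0.0461) or CVST-7d replicate 2 (0.0242), 4 (0.0474) or 5 (0.0355). With CVST-2d replicate 5 and CVST-7d replicate 2 both left out, it was called at 7 d (1.43, adjusted p = 0.00694) and at 2 d (1.13, adjusted p = 0.0202).

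**Figure D3:**
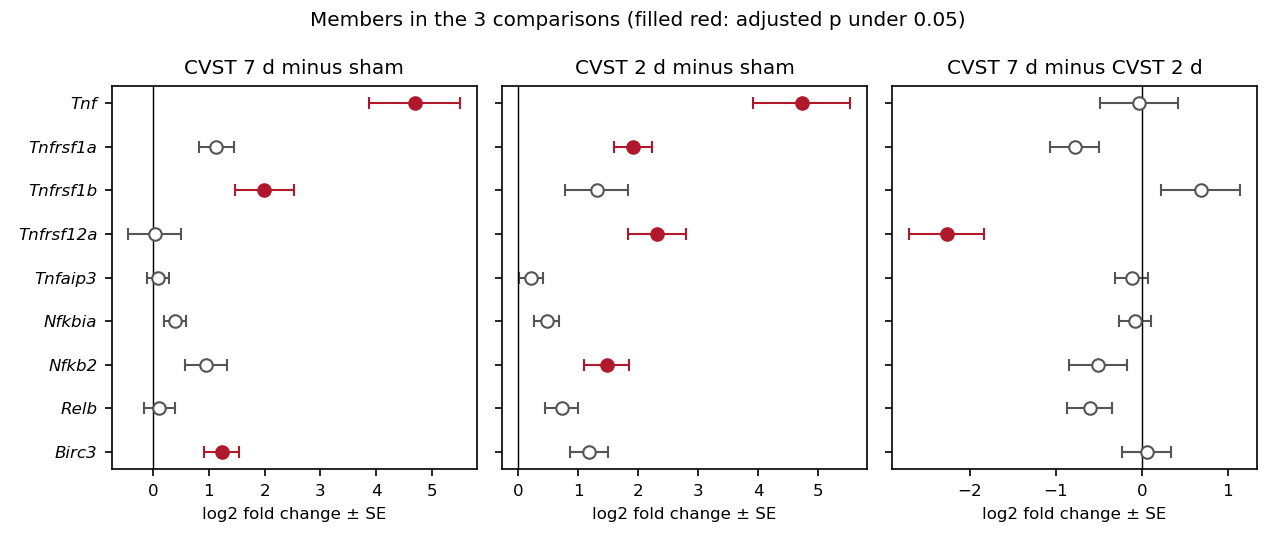
Log2 fold change with its standard error for the 9 genes in the CVST 7 d minus sham, CVST 2 d minus sham and CVST 7 d minus CVST 2 d comparisons, with filled red points where the edgeR adjusted p is under 0.05. Tnf was called in both comparisons with sham, and Tnfrsf12a at 2.31 and -2.27 was called at 2 d and between the times.

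**Figure D4:**
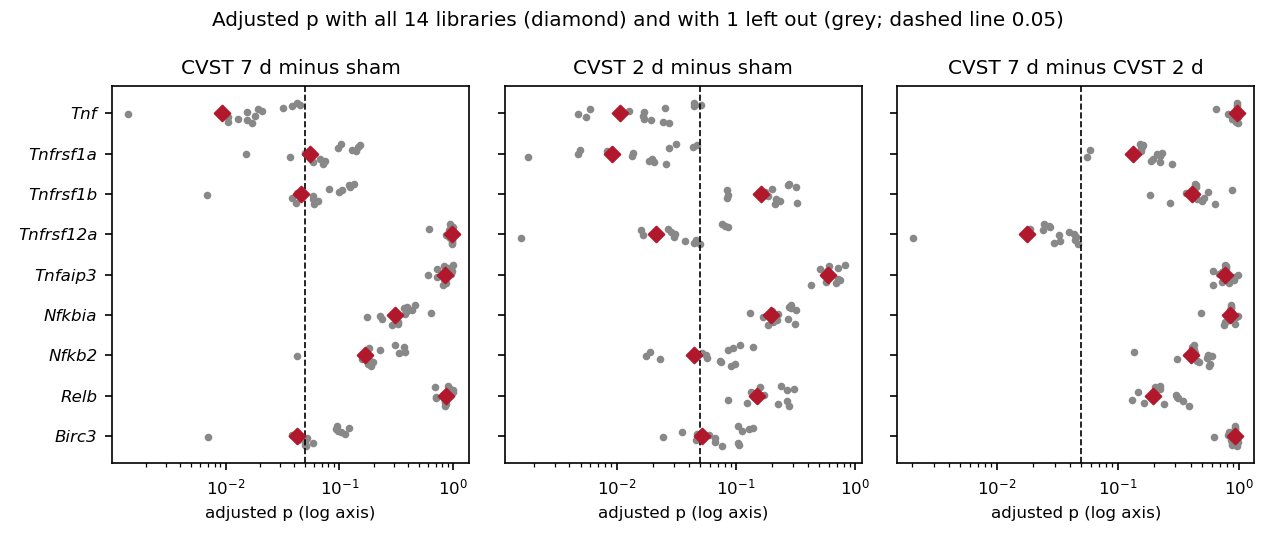
EdgeR adjusted p (log axis) of each gene with all 14 libraries (red diamond) and with 1 library left out (grey points), in the same 3 comparisons; the dashed line is 0.05. Tnfrsf1a at 2 d, Tnf at 7 d and Tnfrsf12a between the times stay left of the line throughout, while Nfkb2 at 2 d and Tnfrsf1b and Birc3 at 7 d cross it.

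The promoters of the feedback genes were read from RefSeq (mouse build GRCm38.p6; the authors' build is mm39, so the coordinates are of the RefSeq build only). Of the 9 genes, 8 had an entry, with 11 windows of 250 bases before an annotated start, and Relb had none. The windows were searched on both strands for the NF-kB decamer consensus, which occurs in 7.25% of 32851 windows of this length. It was found in windows of Nfkb2, Nfkbia and Tnfaip3 and not in those of Tnf, Tnfrsf1a, Tnfrsf1b, Tnfrsf12a and Birc3. The first windows of the 3 genes with a match are shown, together with that of Tnfrsf12a, the gene that differed between the times, 5′ to 3′ with the matches in capitals. They are Nfkb2 at chr19:46304487-46304736 (plus strand), Nfkbia at chr12:55492648-55492897 (minus strand), Tnfaip3 at chr10:19015411-19015660 (minus strand) and Tnfrsf12a at chr17:23677450-23677699 (minus strand).
Nfkb2: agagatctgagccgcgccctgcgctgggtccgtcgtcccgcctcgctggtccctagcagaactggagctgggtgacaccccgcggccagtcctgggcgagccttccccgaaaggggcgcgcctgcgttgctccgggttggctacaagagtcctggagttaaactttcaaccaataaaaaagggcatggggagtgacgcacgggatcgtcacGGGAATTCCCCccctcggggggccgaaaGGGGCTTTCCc
Nfkbia: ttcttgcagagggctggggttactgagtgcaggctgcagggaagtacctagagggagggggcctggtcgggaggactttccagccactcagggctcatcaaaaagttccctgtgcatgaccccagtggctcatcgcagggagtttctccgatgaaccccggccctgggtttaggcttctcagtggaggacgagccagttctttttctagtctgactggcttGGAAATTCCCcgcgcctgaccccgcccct
Tnfaip3: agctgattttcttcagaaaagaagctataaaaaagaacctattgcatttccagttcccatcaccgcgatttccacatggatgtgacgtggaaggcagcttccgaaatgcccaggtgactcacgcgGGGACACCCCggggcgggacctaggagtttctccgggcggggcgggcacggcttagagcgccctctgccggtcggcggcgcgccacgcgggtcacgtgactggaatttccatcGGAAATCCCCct
Tnfrsf12a: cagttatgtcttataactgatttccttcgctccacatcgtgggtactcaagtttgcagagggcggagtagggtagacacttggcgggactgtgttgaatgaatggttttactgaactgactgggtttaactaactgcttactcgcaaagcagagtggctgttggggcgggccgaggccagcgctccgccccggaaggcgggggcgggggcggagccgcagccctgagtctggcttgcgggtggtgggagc

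The Nfkb2 window holds overlapping matches, GGGAATTCCC and GGAATTCCCC, that end 29 and 28 bases before the start, and a further match, GGGGCTTTCC, 1 base before it. In Nfkbia the match GGAAATTCCC ends 19 bases before the start. Tnfaip3 has GGGACACCCC ending 115 bases and GGAAATCCCC ending 2 bases before the start. The windows of the other Nfkb2 starts each hold 1 match, ending 226 and 215 bases before the start. Of the 3 genes whose windows hold a match, Nfkb2 was called at 2 d, while Nfkbia and Tnfaip3 were not called at either time. A match describes letters only, and the absence of one says only that these letters are not in the window.

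Levels were compared between genes in FPKM. In CVST-7d cortex the order was Nfkbia (13.3 FPKM), Tnfrsf1a (12.0), Tnfrsf1b (4.48), Tnfrsf12a (3.96), Relb (2.92), Birc3 (2.05), Tnfaip3 (1.79), Nfkb2 (1.51) and Tnf (0.388), and no neighbours differed by more than the sum of their SDs. In CVST-2d cortex Tnfrsf1a (19.9 FPKM), Tnfrsf12a (19.0) and Nfkbia (14.1) stood beyond their spread above Relb (4.27), followed by Tnfrsf1b (2.70), Nfkb2 (2.13), Birc3 (2.10) and Tnfaip3 (1.99), and Tnf (0.396) was beyond its spread below Tnfaip3. In sham cortex Nfkbia (8.63 FPKM) was beyond its spread above Tnfrsf1a (5.04), which was followed by Tnfrsf12a (3.79) and Relb (2.66). Tnfaip3 (1.57 FPKM), next in sham, was beyond its spread below Relb and above Tnfrsf1b (1.05), and Nfkb2 (0.738) and Birc3 (0.72) came before Tnf (0.01), which was beyond its spread below Birc3. The length that the authors' FPKM values imply varied between samples, by 1.72 times for Birc3 and by at most 1.38 times for the other genes, so small gaps between genes depend on that length.

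Other genes of the pathway were described from 5 lists of 102 genes, of which 81 were tested. At 7 d, 11 were higher and 1 was lower than in sham, 14.8% of those tested against 4.44% of all genes, with a median log2 fold change of 0.42. At 2 d, 7 were higher and 1 was lower than in sham, 9.88% against 3.95% of all genes, with a median of 0.37. Between 7 d and 2 d, 0 were higher and 4 were lower at 7 d, 4.94% against 2.8% of all genes, with a median of 0.05. Without CVST-2d replicate 5 and CVST-7d replicate 2 the counts called were 24 at 7 d, 31 at 2 d and 6 between the times, and with 1 sample left out they ran from 0 to 18, 1 to 28 and 2 to 8. At 7 d the 0 came without sham replicate 3, and at 2 d the 28 came without CVST-2d replicate 5. Calls among all genes also rose in each comparison without CVST-2d replicate 5 and CVST-7d replicate 2. Like Tnf, 22 of the 81 did not reach the filter's count level in all 4 sham samples and were tested because of their CVST samples. A difference in them was favoured by the filter, and the counts give no support for a shift of the lists. They include 6 of the 12 genes called at 7 d (Tnfsf8, Tnfrsf13b, Tnfrsf14, Ripk3, Ccl5 and Cxcl10), 7 of the 8 called at 2 d (Tnfrsf13b, Bcl3, Ccl2, Cxcl1, Cxcl10, Il1b and Saa3) and 1 of the 4 called between the times (Cxcl1).

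Among the other ligands of the TNF family, 17 listed and 6 tested, Tnfsf8, the gene of CD30 ligand, was higher at 7 d (tested through its CVST samples; 1.26 ± 1.63 CPM in CVST-7d against 0.0298 ± 0.0345 CPM in sham, SD; log2 fold change 5.19 ± 1.18 SE, edgeR adjusted p = 0.0251), and none was called at 2 d or between the times. Of the 17 other receptors tested, 3 were higher at 7 d. They were Tnfrsf14, the gene of the LIGHT receptor HVEM (2.04 ± 0.47, edgeR adjusted p = 0.0277), Tnfrsf13b, the gene of TACI, a receptor for BAFF and APRIL (1.63 ± 0.42, adjusted p = 0.0435), and Tnfrsf19, the gene of TROY (0.51 ± 0.12, adjusted p = 0.0309). Of these, Tnfrsf14 and Tnfrsf13b were tested through their CVST samples. At 2 d Tnfrsf13b alone was called (1.62 ± 0.42, adjusted p = 0.047). The Tnfrsf13b calls held in 5 of 14 fits that leave out 1 sample at 7 d and in 4 of 14 at 2 d, and at 7 d Tnfsf8 held in 10 of 14, Tnfrsf19 in 8 of 14 and Tnfrsf14 in 7 of the 10 that tested it.

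Of the 31 adaptors, ubiquitin enzymes and kinases tested, 3 were higher at 7 d and Traf3 was lower at both times. Those higher were Ripk3 (2.88 ± 0.77, edgeR adjusted p = 0.0472) and Ripk1 (1.02 ± 0.23, adjusted p = 0.0247), the kinases that drive necroptosis, and Cflar (0.63 ± 0.15, adjusted p = 0.0336), whose product c-FLIP restrains caspase-8. Ripk3 was tested through its CVST samples. Traf3, which holds back the non-canonical arm by marking its kinase NIK for breakdown, averaged 53.0 ± 2.77 CPM in CVST-7d, 51.4 ± 4.74 CPM in CVST-2d and 69.4 ± 3.97 CPM in sham (SD). All 10 CVST samples lay below every sham sample. Its log2 fold change was -0.39 ± 0.07 at 7 d (edgeR adjusted p = 0.0135) and -0.43 ± 0.07 at 2 d (edgeR adjusted p = 0.0107), called in 13 of 14 fits that leave out 1 sample at each time. Without sham replicate 3 the adjusted p was 0.0654 at 7 d and 0.0512 at 2 d. The other NF-kB and IkB genes, 8 of 8 tested, had 1 call, Bcl3, an atypical IkB protein that acts with NF-kB in the nucleus, at 2 d (6.04 ± 3.05 CPM in CVST-2d against 0.460 ± 0.465 CPM in sham; 3.72 ± 0.84, edgeR adjusted p = 0.0296). Bcl3 too was tested through its CVST samples. Leaving out 1 sample at a time, Ripk1 and Cflar at 7 d were called in 8 of 14 fits each, Ripk3 in 4 of 14, and Bcl3 at 2 d in 7 of 14.

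Classical NF-kB target genes, 19 of 23 tested, gave 4 calls higher at 7 d and 5 higher at 2 d relative to sham, and 4 lower at 7 d than at 2 d. At 7 d they were Ccl5 and Cxcl10, chemokines that draw T cells, Icam1, an adhesion molecule for leukocytes, and Irf1, a transcription factor of interferon responses. Ccl5, tested through its CVST samples alone, had no read in sham and 91 reads in CVST-7d, at least 25.8-fold higher against a floor of 3 reads over the sham group (edgeR adjusted p = 0.0297). Cxcl10, also tested through its CVST samples, was higher by 3.91 ± 0.77 (edgeR adjusted p = 0.0152). Icam1 was higher by 1.62 ± 0.43 (edgeR adjusted p = 0.0481) and Irf1 by 0.82 ± 0.22 (adjusted p = 0.048). At 2 d the calls, all of genes tested through their CVST samples, were Ccl2, a monocyte chemokine (5.98 ± 1.29, edgeR adjusted p = 0.0256), Saa3, an acute-phase protein (5.05 ± 1.25, adjusted p = 0.0393), Cxcl1, a neutrophil chemokine (4.79 ± 0.74, adjusted p = 0.00698), Cxcl10 (3.52 ± 0.77, adjusted p = 0.0263) and Il1b, which encodes the cytokine interleukin-1 beta (3.05 ± 0.66, adjusted p = 0.0259). Lower at 7 d than at 2 d were Cxcl1 (-3.73 ± 0.61, edgeR adjusted p = 0.00998), the stress gene Gadd45b (-1.64 ± 0.38, adjusted p = 0.0368), the prostaglandin enzyme gene Ptgs2 (-1.29 ± 0.25, adjusted p = 0.0169) and the survival gene Ier3 (-1.12 ± 0.24, adjusted p = 0.0256). All 5 CVST-7d samples were below all CVST-2d samples in each of these 4 genes. The genes were picked by their calls in these same samples, so the separation is no further support. How many of all tested genes separate so was not counted. Cxcl1 reached the filter's count level in 5 CVST-2d, 0 CVST-7d and 0 sham samples. It was thus tested through CVST-2d alone, and its calls were favoured by the filter. The Cxcl1 and Ptgs2 calls held whichever sample was left out. Of such fits, Irf1 at 7 d was called in 3 of 14, Icam1 in 4, Ccl5 in 9 and Cxcl10 in 12, and at 2 d Saa3 in 8, Ccl2 in 9 and Cxcl10 and Il1b in 10 each. Between the times Gadd45b was called in 6 and Ier3 in 10.

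**Figure D5:**
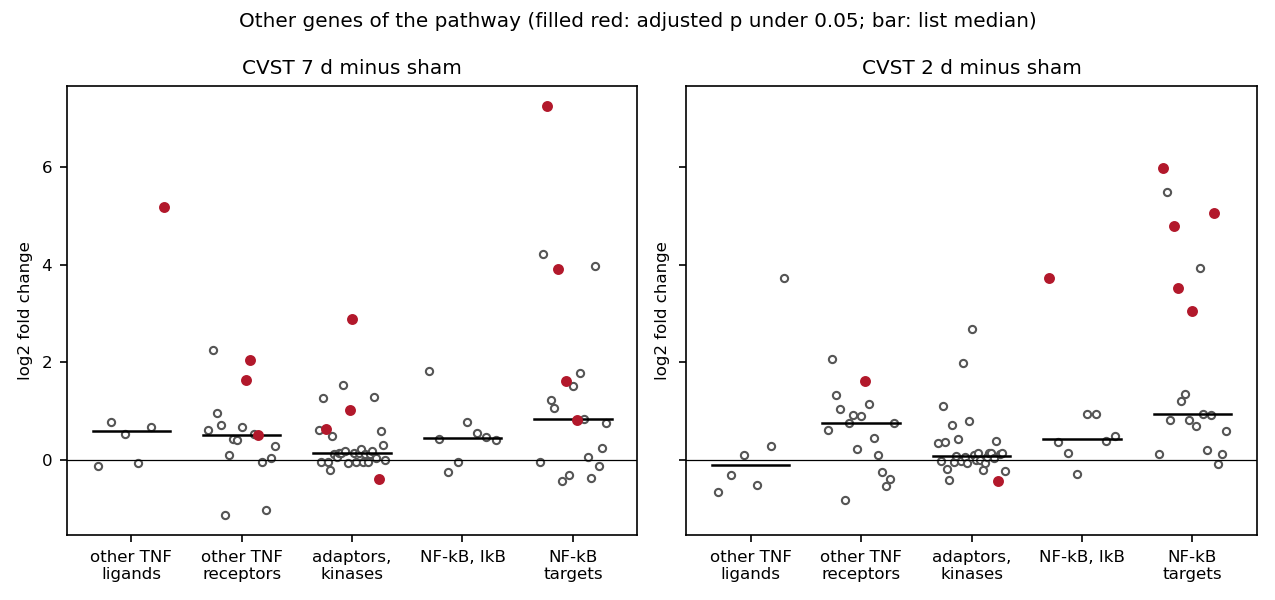
Log2 fold change of the 81 tested genes of the other pathway lists in the CVST 7 d minus sham and CVST 2 d minus sham comparisons, by list, with filled red points where the edgeR adjusted p is under 0.05 and a bar at each list's median. At 7 d 12 points are filled and at 2 d 8; the topmost at 7 d is Ccl5, which had no read in sham, so that its plotted value is no bound.

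Markers of other cell types also differed between the groups at some times, and their part in the results was not tested. Of 8 microglia and macrophage markers, 6 were higher at 7 d and 0 at 2 d relative to sham, and the summed level was 257 to 742 CPM in CVST-7d, 186 to 460 CPM in CVST-2d and 199 to 232 CPM in sham. CVST-7d replicates 4 and 5 had 742 and 664 CPM of these markers. They were the highest of their group in Tnfrsf1a, Tnfrsf1b, Tnfrsf12a, Nfkb2, Relb and Birc3, but not both so in Tnf, Nfkbia or Tnfaip3. CVST-2d replicate 2 had the highest sum of its group, 460 CPM. It was the highest of its group in Tnf, Tnfrsf1a, Tnfrsf1b and Nfkb2, and in none of the rest of the 9 genes. CVST-2d replicate 5, with Tnf at 0.579 CPM and the highest Nfkbia of its group, had 186 CPM, the lowest of all samples. Of 4 monocyte markers, Lyz2 was higher at 7 d and 0 were called at 2 d. Their sum was 14.5 to 1786 CPM in CVST-7d, 15.1 to 148 CPM in CVST-2d and 6.76 to 9.82 CPM in sham, with the highest value in CVST-7d replicate 5 and the lowest of its group in CVST-7d replicate 2. In CVST-2d this sum was mostly Lyz2 (mean 50.3 CPM, against 3.12 for Ccr2, 1.39 for Ly6c2 and 0.701 for Plac8). Neutrophil markers, 2 of 5 tested and 0 called, summed to at most 0.944 CPM in CVST-7d, where Camp and Ly6g had no read, and to 1.37 to 6.94 CPM in CVST-2d and 0.182 to 2.76 CPM in sham. Lymphocyte markers, 0 of 6 tested, summed to at most 1.03 CPM in CVST-7d, 0.984 CPM in CVST-2d and 0.377 CPM in sham, where Nkg7 had no read. Astrocyte markers summed to 1018 to 2799 CPM in CVST-7d, 781 to 2076 CPM in CVST-2d and 400.4 to 437 CPM in sham, with 2 of 4 higher at each time, among them Gfap. In CVST-2d the astrocyte sum was mostly Gfap (mean 1324 CPM, against 182 for Aqp4, 83.7 for Aldh1l1 and 77.9 for S100b). Endothelial markers summed to 126 to 186 CPM in CVST-7d, 174 to 288 CPM in CVST-2d and 134 to 175 CPM in sham, with 2 of 5, Pecam1 and Cdh5, higher at 2 d. Between 7 d and 2 d, 1 of 8 microglia and macrophage markers was called, P2ry12, which was higher at 7 d (0.99 ± 0.23, edgeR adjusted p = 0.0362). At 2 d relative to sham its log2 fold change was -0.54 (not called, edgeR adjusted p = 0.209), while those of the other markers of its list were positive. Lower at 7 d than at 2 d were 1 of 5 endothelial markers, Pecam1 (-0.78 ± 0.19, edgeR adjusted p = 0.0429), and 1 of 4 red cell markers, Hba-a1 (-3.60 ± 0.91, adjusted p = 0.048).

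Choroid plexus and striatum markers, signs of tissue from outside the cortex, had 0 of 3 called each. Choroid plexus markers summed to 7.88 to 119 CPM in CVST-7d, 3.47 to 476 CPM in CVST-2d and 11.2 to 834 CPM in sham, and striatum markers to 111 to 526 CPM in CVST-7d, 104 to 540 CPM in CVST-2d and 90.3 to 629 CPM in sham. Red cell markers summed to 2.01 to 32.2 CPM in CVST-7d, 24.9 to 383 CPM in CVST-2d and 4.10 to 25.7 CPM in sham, with none called relative to sham (edgeR).

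The tested genes most like each of the 9 across the 14 samples were taken by the Pearson correlation of log2 CPM, given as a description, since the points share groups and libraries. For Tnf they were Fcgr4 (0.95), Clec4d (0.95) and Naip2 (0.95). Those of Tnfrsf1b were Tmem106a (0.98), Cyba (0.98) and Cd53 (0.97). Those of Tnfrsf1a were Clic1 (0.98), Il4ra (0.98) and Slc39a1 (0.97). Tnfrsf12a was most like Gsr (0.95), Pcna (0.95) and Ddx21 (0.94). Nfkb2 was most like C5ar1 (0.97), Tuba1c (0.94) and Fermt3 (0.94). Birc3 was most like Ms4a6b (0.97), Samsn1 (0.95) and Gcnt1 (0.95). Relb was most like Pim1 (0.91), H3f3b (0.91) and Gadd45g (0.90). The inhibitors had looser matches, Nfkbia with Mt2 (0.86), Slc41a1 (0.85) and Phf7 (0.84), and Tnfaip3 with Spaca6 (0.83), Urb1 (0.82) and Nfrkb (0.78). Among the 9 genes themselves the correlation over the 14 samples was highest between Tnfrsf1a and Nfkb2 (0.92) and lowest between Tnfrsf12a and Nfkbia (0.18).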

How the data were processed

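The authors sequenced Trizol RNA as NEBNext Ultra libraries, per the labels' protocols. The submitters' processing notes name fastp, HISAT2, DESeq2 1.16.1 and build mm39; for the counting tool and annotation, nothing is stated in the sources used here. The deposited table holds whole-number counts per gene, with FPKM beside them, both made by the authors. Its 55894 entries include 535 assembled loci without a gene (0.203% to 0.278% of counts), which stayed out of totals and tests.

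Counts of the 14 samples were fitted together with edgeR 4.0.16 (R 4.3.3; TMM scaling, filterByExpr, quasi-likelihood test). Samples were grouped by their treatment labels, with no covariate. Adjusted p-values are Benjamini-Hochberg over all 16918 genes tested. CPM values use TMM factors, and log2 CPM adds a prior count of 2. FPKM served only for levels between genes and for the receptor ratio, tested by a 2-sided exact permutation (scipy 1.17.1). The steps were tested on simulated data. A limit on the share of false calls was set there for edgeR and the voom alternative, but not for the DESeq2 alternative. Pairs of replicates differed by more than sampling noise (lowest chi-square per degree of freedom 8.27). GENCODE vM21 served for overlaps and RefSeq for promoters. Whether the same replicate number pairs samples across groups is not settled, and the main fit did not use it.

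The 9 genes, the gene lists and the rule for other named genes were chosen with earlier results of these data known. That rule named, per pathway list and comparison, up to 4 called genes with the largest fold change and up to 2 called the other way, and for each of the 9 the 3 genes most like it. Il1b falls outside it and was named after its values were seen. Alternatives were DESeq2 size factors, DESeq2 1.42.0, limma 3.58.1 voom with sample weights, no filter, a replicate block, 2 groups in the fit and each sample left out; for the ratio, an added 0.1 FPKM and CPM. One marker list is not reported here.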

Additional observations from a re-analysis of the deposited data

Results flagged for a closer look

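Tnf in sham replicate 1, at 0.0588 CPM, stood apart from the other 3 sham samples, all at 0 CPM; the value is 1 read. It was the only one flagged of 30 groups checked. With the other values all at 0, any single read is flagged, so the usual rate of about 1 group in 20 by chance does not apply to it.

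Tnfrsf12a differed between the 2 times after CVST, with a log2 fold change of -2.27 ± 0.44 (SE) at 7 d relative to 2 d, which the edgeR quasi-likelihood test called (adjusted p = 0.0177). Of the CVST-2d samples, 4 of 5 lay above all CVST-7d samples, and replicate 5 lay within their range. The call was lost with replicate number as a block and with only the 2 compared groups in the fit.

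The log2 ratio of Tnfrsf1b to Tnfrsf1a also differed between the times, by 1.27 at 7 d relative to 2 d (2-sided exact permutation test, adjusted p = 0.0476), and was above every CVST-2d sample in 4 of 5 CVST-7d samples.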

How the results depend on the processing

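Tnfrsf1a at 2 d was called under all 21 alternatives run, and Tnf at 2 d and 7 d under all alternatives that tested it except sham replicate 3 left out (2 d, adjusted p = 0.0512) and the replicate block (7 d, 0.0628); the fits of 2 groups did not test Tnf. Genes called of the 9 at 2 d were 3 to 6 under the alternatives that kept all samples or left out the 2 doubted ones. At 7 d they were 1 with voom weights, 0 with the replicate block, 0 with 2 groups in the fit and 5 without CVST-2d replicate 5 and CVST-7d replicate 2; between the times they were 2 with voom weights, 0 with the block and 0 with 2 groups. With 1 sample left out they were 1 to 5 at 7 d, 1 to 5 at 2 d and 1 throughout between the times. Among all genes, counts called at 7 d (752) were 1386 with DESeq2, 81 with the block and 1324 without the 2 samples, at 2 d (669) 1528 with DESeq2, 2616 with voom weights, 315 with the block and 2146 without the 2 samples, and between the times (473) 1271, 1237, 91 and 913 under the same 4 settings, and 81 with 2 groups. With 1 sample left out they ran from 119 to 1035 at 7 d, 76 to 1967 at 2 d and 173 to 1309 between the times. Pathway list genes called at 7 d (12) were 19 with DESeq2, 0 with the block, 4 with 2 groups and 24 without the 2 samples, at 2 d (8) 29 with DESeq2, 30 with voom weights, 4 with the block, 18 with 2 groups and 31 without the 2 samples, and between the times (4) 8 with DESeq2, 8 with voom weights, 1 with the block and 2 with 2 groups. With 1 sample left out they ran from 0 to 18, 1 to 28 and 2 to 8. The receptor ratio at 2 d relative to sham was -0.69 with CPM in place of FPKM and -0.67 without the 2 samples, neither passing the threshold, and at 7 d it was 0.84 without the 2 samples, which passed; with 1 sample left out it ran from 0.38 to 0.84 at 7 d, -0.90 to -0.58 at 2 d and 1.11 to 1.55 between the times. Directions that turned belong to differences that were not called. At 7 d relative to sham they were Relb (-0.14 with voom weights, -0.0324 to 0.29 with 1 sample left out), Tnfaip3 (-0.0105 with the block, -0.0093 to 0.20) and Tnfrsf12a (-0.16 to 0.49). Between 7 d and 2 d they were Tnfrsf1b (-0.0232 with voom weights), Birc3 (-0.32 with voom weights, -0.0199 with the block, -0.13 to 0.24), Tnf (0.23 without the 2 samples, -0.41 to 0.21), Tnfaip3 (0.0681 without the 2 samples) and Nfkbia (0.13 without the 2 samples, -0.25 to 0.0562). The cause of these changes was not tested. Replicate numbers are shared between groups, and the correlations of deviations between same-numbered samples ran from -0.438 to 0.28 over 13 pairs. Differently numbered pairs were not compared, so these values cannot decide whether the numbers pair samples. Depth limits Tnf most, at 19 reads or fewer in any sample.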
